A study of Mus musculus with 10 samples.

Results

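The genes described here are 10 markers and regulators of blood vessel endothelium, chosen by name from the 49585 rows of the count table. They are the identity genes Pecam1, Cdh5, Emcn, Cd34, Vwf and Robo4, the receptor genes Tie1 and Tek, and the ligand genes Angpt1 and Angpt2. All 10 had a row and all 10 passed the filter on low counts. They were measured in the left ventricle of male ICR mice, an outbred stock, in 5 libraries of hearts given 4FM3 and 5 of hearts given phosphate-buffered saline (PBS). Both groups carried an experimental myocardial infarction and were collected 4 weeks after it. A time of 8 weeks is also given for both, without saying from when it was counted. Hearts were perfused with cold saline before atria, valves and right ventricle were cut away. The series title names direct reprogramming by adeno-associated virus (AAV), but the sources used here do not give the genes or vectors behind the name 4FM3. The samples analysed hold no uninjured heart and no empty vector, so an effect of a vector and one of its cargo cannot be told apart.

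Endothelial cells line vessels and, as endocardium, the chambers of the heart. Their junctions are held by VE-cadherin, the product of Cdh5, and by PECAM-1, the product of Pecam1. The receptor TIE2, encoded by Tek, keeps vessels quiet when it is bound by angiopoietin 1, which cells outside the endothelium secrete. Angiopoietin 2 is made by endothelial cells themselves, often opposes angiopoietin 1 at TIE2 and loosens vessels, and TIE1 is a related receptor without a well defined ligand of its own that modulates TIE2.

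The upstream sequences of 3 of the genes are shown because these genes passed the test below, Robo4 and Emcn higher and Cd34 lower in 4FM3, and because ETS family factors such as ERG and FLI1 are known to drive endothelial genes. They are the RefSeq sequences on GRCm38.p6, 5′ to 3′ on the plus strand, and each ends just before the first annotated start of its gene. Robo4 lies at chr9:37401722-37401896, Cd34 at chr1:194938571-194938818 and Emcn at chr3:137340828-137341061. Capitals mark AGGAAG, an extended form of the ETS core GGAA, or its reverse complement CTTCCT. Other stretches with GGAA or TTCC are not marked or counted.
Robo4: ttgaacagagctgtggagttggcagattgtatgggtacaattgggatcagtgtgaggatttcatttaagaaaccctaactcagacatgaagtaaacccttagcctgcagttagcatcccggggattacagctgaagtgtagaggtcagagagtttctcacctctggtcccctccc
Cd34: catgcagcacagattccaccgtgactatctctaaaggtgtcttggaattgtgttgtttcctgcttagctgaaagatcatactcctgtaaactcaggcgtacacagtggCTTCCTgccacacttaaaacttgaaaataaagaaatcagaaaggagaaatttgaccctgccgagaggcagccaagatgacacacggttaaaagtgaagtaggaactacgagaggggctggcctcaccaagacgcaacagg
Emcn: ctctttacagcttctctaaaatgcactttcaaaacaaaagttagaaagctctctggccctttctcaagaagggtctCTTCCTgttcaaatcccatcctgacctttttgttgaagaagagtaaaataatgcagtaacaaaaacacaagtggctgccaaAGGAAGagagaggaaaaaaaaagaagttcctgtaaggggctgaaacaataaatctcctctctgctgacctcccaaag
The stretch shown for Robo4 held no match (that of its full window lies past its end), that of Cd34 held 1 and that of Emcn held 2. Promoter windows from 250 bases before to 50 after the start matched 5 of the 10 genes, and Pecam1, Cdh5, Vwf, Angpt1 and Angpt2 had no entry. Of these 5 windows, 4 (Cd34, Emcn, Robo4 and Tie1) held AGGAAG on either strand. Of all 32817 windows of 300 bases, 35.4% held it. The GATA motif AGATAA, whose leading AG can overlap the end of AGGAAG, was searched on both strands. It was in the window of Tek alone among the 5, and in 11.2% of all windows. A match of these letters describes the sequence and does not show binding.

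Total counts ran from 6634159 to 7711177 per library, and 3 counts, the limit that a count of 0 allows, lay between 0.371 and 0.481 CPM. CPM is the count scaled to a common library total, here after TMM scaling by a trimmed mean of the log ratios between libraries. Cardiomyocyte markers, a check on the tissue, were counted for 10 of 10 and summed to 55303 to 69693 CPM in 4FM3 and 35764 to 49380 CPM in PBS. Fibroblast markers, 10 of 10 counted, summed to 5541 to 9600 CPM in 4FM3 and 12597 to 14419 CPM in PBS. Lung epithelial markers, 13 of 14 counted and Bpifa1 at 0 throughout, summed to 26.99 CPM in 4FM3 replicate 2, to 1224 and 1176 CPM in PBS replicates 2 and 3 and to at most 5.67 CPM in the other 7 libraries. Lung is rich in endothelium, so the fold changes of the 10 genes, the ratios and the list counts were also computed without PBS replicates 2 and 3. No label says whether the libraries of a group came from different animals. The p-values therefore cover the spread among libraries, which may be technical.

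Of the 10 endothelial genes, Robo4 rose and Cd34 fell under every setting tried, and the other differences were small or uncertain. Robo4 was 1.498-fold higher in 4FM3, Cdh5 and Emcn were 1.16-fold and 1.15-fold higher, Cd34 was 1.24-fold lower and Angpt2 was 1.55-fold lower. These 5 of the 10 genes passed the edgeR quasi-likelihood test at an adjusted p under 0.05, 3 higher and 2 lower, while 43% of the 12906 genes tested passed it, 20.9% higher and 22.1% lower. The share of the 10 genes that passed was thus near that of all genes. A fitted change of over 1.5-fold was found for 1 of the 10, Angpt2, and for 22.7% of all genes. Their median log2 fold change was 0.13, and that of all genes tested was -0.03. With library size alone as scaling the split of all genes was 1540 higher and 4967 lower, against 2700 higher and 2846 lower with TMM. That scaling moved the median of all genes to -0.205, called 50.4% of them, and left 1 higher and 2 lower among these 10. The count of 5 was 2 without 4FM3 replicate 1 or 2 or without both PBS replicates 2 and 3, and 3 without 4FM3 replicate 3 or PBS replicate 1, 2, 3 or 5. Values of the groups did not overlap for 3 of the 10 genes, Robo4, Pecam1 and Cd34, against 27.5% of all genes tested. The tissue was measured in bulk, so a different number of endothelial cells and a different amount of RNA per cell cannot be told apart.

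**Figure D1:**
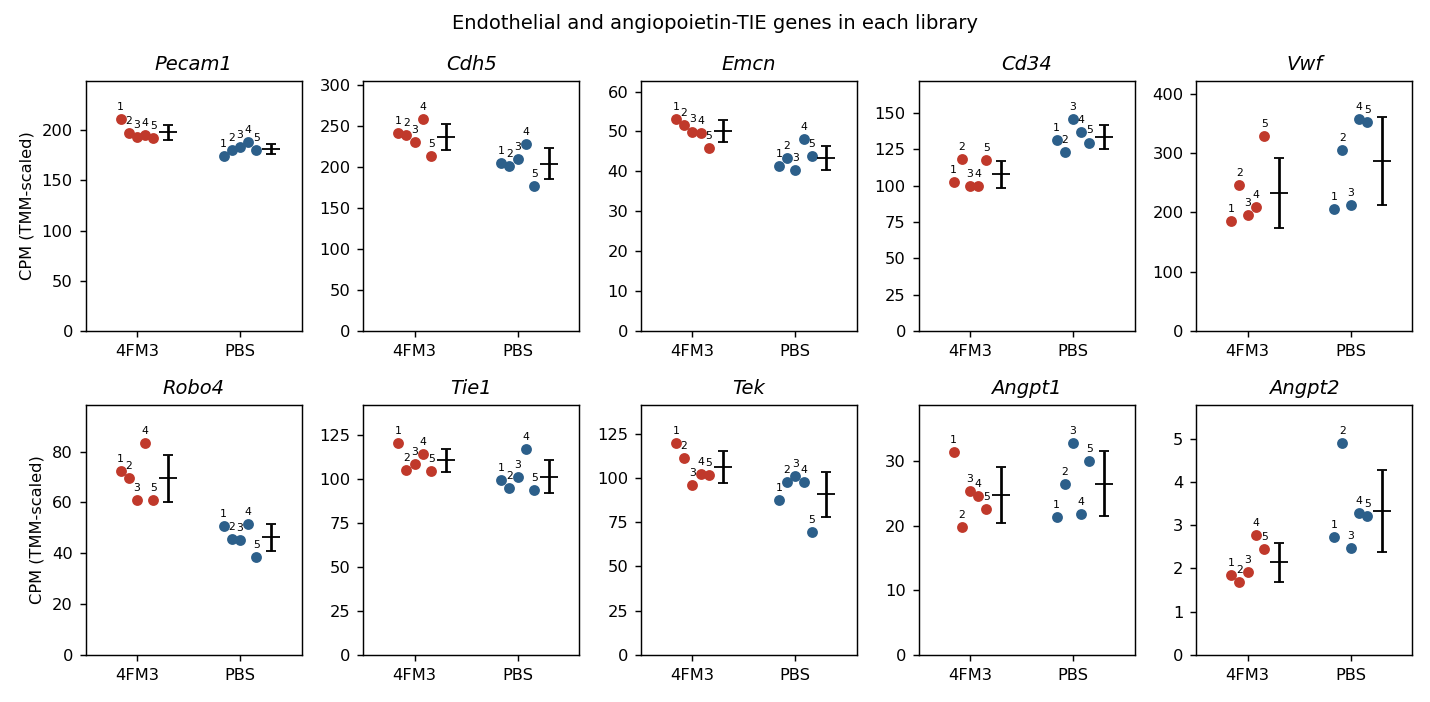
CPM (vertical axis, from 0) of each of the 10 genes in each library, 4FM3 left and PBS right; numbers are replicates, and the black bar gives the mean and SD of 5 libraries. The 5 Robo4 values of 4FM3 lie above those of PBS, the 5 Cd34 values lie below, and Vwf spreads widely in both groups.

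Cdh5 encodes VE-cadherin, the adhesion molecule of endothelial junctions (chromosome 8, 104101625 to 104144511 on GRCm38). It had 241.4, 238.8, 230.4, 258.0 and 213.3 CPM in 4FM3 replicates 1 to 5, and 204.7, 200.7, 209.9, 228.3 and 176.2 CPM in PBS replicates 1 to 5. The groups overlapped, since 4FM3 replicate 5 stood below PBS replicate 4, and replicate 5 was the lowest of its group in both. The log2 fold change was 0.21 (SE 0.0771, adjusted p = 0.0404 by the edgeR quasi-likelihood test). Emcn encodes endomucin, a sialomucin of capillary and venous endothelium (chromosome 3, 137341067 to 137432185). It ranged from 45.8 to 53.1 CPM in 4FM3 and from 40.4 to 48.1 CPM in PBS, with a log2 fold change of 0.21 (SE 0.0673, adjusted p = 0.0267). Emcn overlapped only through PBS replicate 4 and 4FM3 replicate 5, the highest and the lowest of their groups. Both genes left the called side when libraries were scaled by library size alone (0.038 for Cdh5 and 0.029 for Emcn) or when PBS replicates 2 and 3 were left out (0.23 and 0.18, with fewer libraries). Cdh5 passed in 2 of the 10 fits that left out 1 library, without 4FM3 replicate 5 (0.25) and without PBS replicate 4 (0.27), and Emcn did not pass without 4FM3 replicate 1 (0.19), 4FM3 replicate 2 (0.19), PBS replicate 1 (0.19) or PBS replicate 3 (0.20).

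Pecam1 encodes the junctional immunoglobulin-family protein also known as CD31, which leukocytes and platelets carry too (chromosome 11, 106654217 to 106750628). It had 210.7, 197.0, 192.7, 195.2 and 192.1 CPM in 4FM3, and 174.1, 180.0, 183.1, 188.0 and 180.0 CPM in PBS. The groups did not overlap, yet the difference was small, with a log2 fold change of 0.13 (SE 0.0541) that did not pass (adjusted p = 0.0756). With library size alone the value turned to -0.051, also not called, and DESeq2 called it at 0.14 (adjusted p = 0.0123). Leukocyte markers, 9 of 10 with a row in the table and all 9 counted, summed to 714 to 857 CPM in 4FM3 and 799 to 1760 CPM in PBS, with 7 of the 9 lower by the test, 2 of the 9 without PBS replicates 2 and 3 or without 4FM3 replicate 3, and 4 without 4FM3 replicate 1, 4FM3 replicate 4 or PBS replicate 2. Of all genes tested 22.1% fell. The part of leukocytes in the Pecam1 values was not tested. Pecam1 had the smallest spread of the 10 genes, with a coefficient of variation of 3.86% in 4FM3 and 2.82% in PBS.

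Robo4 rose. It encodes an endothelial member of the roundabout receptor family that is known to stabilise vessels against leak (chromosome 9, 37401897 to 37415115), and its upstream sequence is the first of those printed above. It had 72.4, 69.5, 60.9, 83.4 and 61.1 CPM in 4FM3, and 50.8, 45.8, 45.2, 51.7 and 38.4 CPM in PBS. Every 4FM3 library stood above every PBS library. The mean was 69.5 ± 9.31 CPM in 4FM3 and 46.4 ± 5.31 CPM in PBS (SD, n = 5 each), with a log2 fold change of 0.58 (SE 0.102, adjusted p = 0.000920). Over the 19 alternative settings the log2 fold change lay between 0.40 and 0.64 and the adjusted p between 4.46e-06 and 0.0125. The lowest of these values, 0.40 (adjusted p = 0.00370), came from scaling each library to 26 other endothelial genes, so Robo4 was also higher relative to that panel.

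Other genes of roundabout and slit signalling went the opposite way. Of 8 listed partners and paralogs 6 were tested, and all 6 fell, while 22.1% of all genes tested fell. Their median log2 fold change was -1.02, beside -0.03 over all genes. Slit2 and Slit3 encode secreted slit ligands. Slit2 fell to 23.7 ± 8.09 CPM in 4FM3, against 58.3 ± 11.7 CPM in PBS (SD, n = 5 each), 2.45-fold lower, and Slit3 was 1.97-fold lower (adjusted p = 0.00106 and 0.000701 by the edgeR quasi-likelihood test). The paralog Robo1 was 2.08-fold lower (adjusted p = 0.000953). Unc5b, whose product binds ROBO4, was 1.68-fold lower (adjusted p = 0.00184), and Robo2 and the small GTPase gene Arf6 were 2.16-fold and 1.182-fold lower (adjusted p = 0.0115 and 0.0282). Unc5b, Robo2 and Arf6 were named after their values were seen. These genes are also made outside the endothelium, and the fibroblast marker sum given above was lower in every 4FM3 library than in any PBS library. Its part in these changes was not tested. Without PBS replicates 2 and 3, 4 of the 6 fell, with a median of -0.92.

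Cd34 fell. It encodes a sialomucin of capillary endothelium that fibroblasts and blood progenitors also carry (chromosome 1, 194938819 to 194961279). It had 102.8, 118.6, 99.98, 99.6 and 117.5 CPM in 4FM3, and 131.4, 123.2, 145.6, 136.6 and 129.6 CPM in PBS. All 4FM3 values were below all PBS values, and 4FM3 replicates 2 and 5 came nearest to PBS. The mean was 108 ± 9.53 CPM in 4FM3 and 133 ± 8.38 CPM in PBS (SD, n = 5 each), with a log2 fold change of -0.31 (SE 0.0718, adjusted p = 0.00474). The value stayed between -0.50 and -0.26 over the 19 alternative settings, with adjusted p between 0.000534 and 0.0305. Fibroblast markers were lower too. Of 10 listed, 9 fell and none rose, with a median of -0.77, while 22.1% of all genes tested fell. In 4FM3, replicates 2 and 5 had the highest Cd34 values and the highest fibroblast marker sums (8483 and 9600 CPM). PBS did not share this order. Its replicate 2 had the highest sum (14419 CPM) and the lowest Cd34 value, and replicate 3, with the highest Cd34 value, had 13797 CPM. The part of fibroblasts in the Cd34 values was not tested.

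Vwf encodes von Willebrand factor, the clotting protein stored in Weibel-Palade bodies, which is abundant in veins, endocardium and megakaryocytes and sparse in capillaries (chromosome 6, 125546774 to 125686679). It had 185.0, 245.5, 195.6, 208.6 and 329.0 CPM in 4FM3, and 204.9, 305.2, 212.0, 356.9 and 351.6 CPM in PBS. The groups overlapped widely, with 4FM3 replicate 5 near the 3 highest PBS libraries and PBS replicates 1 and 3 among the 4FM3 values. The log2 fold change of -0.30 (SE 0.203) did not pass (adjusted p = 0.257). Without PBS replicates 2 and 3 it was -0.37 and did not pass (adjusted p = 0.245 by the edgeR quasi-likelihood test). A fit that also dropped 4FM3 replicates 2 and 5 gave -0.63 and passed (adjusted p = 0.0481 by the same test). Those 4FM3 libraries held the highest Vwf values of their group, so leaving them out lowers the fold change. Platelet and megakaryocyte markers, 8 of 8 counted, summed to 16.04 to 46.4 CPM in 4FM3 and 16.2 to 21.9 CPM in PBS, and the highest sum was that of 4FM3 replicate 5. In PBS replicates 4 and 5, the highest Vwf libraries of PBS, these markers summed to 16.2 and 17.5 CPM. Endocardial genes, a list without Vwf, summed to 152 to 292 CPM in 4FM3 and 219 to 318 CPM in PBS. Their sums put the libraries of each group in the same order as Vwf did. In PBS this order rests on a near tie, 317.7 CPM in replicate 4 and 317.4 CPM in replicate 5. Fibroblast marker sums gave the same order as Vwf in 4FM3, but not in PBS. The part of platelets, endocardium or fibroblasts in the Vwf values was not tested.

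Genes linked to Vwf storage, release and clearance were mostly lower. Of 9 tested, 5 fell and 1 rose, and the median log2 fold change was -0.57. Of all genes tested 22.1% fell and 20.9% rose. Cd63, which encodes a membrane protein of Weibel-Palade bodies and late endosomes, was 1.28-fold lower (adjusted p = 0.00230 by the edgeR quasi-likelihood test). Tspan7, a tetraspanin gene, was 1.25-fold higher (adjusted p = 0.00391). The adhesion molecule gene Selp, stored beside von Willebrand factor, had a log2 fold change of -0.81 that did not pass (adjusted p = 0.120), a gene named after its values were seen. Cd63 is made by many cell types. With PBS replicates 2 and 3 left out 3 of the 9 fell, with a median of -0.36.

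The receptor genes Tek and Tie1 stood close together and showed no called difference. Tek (chromosome 4, 94739289 to 94874976) had 119.8, 111.1, 96.1, 102.4 and 101.5 CPM in 4FM3, and 87.4, 97.6, 101.0, 97.9 and 69.6 CPM in PBS. Only 4FM3 replicate 3 stood below the highest PBS values, and PBS replicate 5 was the lowest of all. Its log2 fold change was 0.23 (SE 0.0993, adjusted p = 0.0802), and no alternative setting called it. Tie1 (chromosome 4, 118471191 to 118490061) ranged from 104.6 to 120.6 CPM in 4FM3 and from 93.9 to 117.1 CPM in PBS, with a log2 fold change of 0.12 (SE 0.0719, adjusted p = 0.177). Without PBS replicate 4, the highest Tie1 library of its group, the change was 0.19 and passed (adjusted p = 0.0339), and with library size alone it turned to -0.051. The ratio of Tek to Tie1 within a library hardly depends on the scaling of libraries. Its log2 averaged -0.06 ± 0.106 in 4FM3 and -0.17 ± 0.192 in PBS (SD, n = 5 each), a difference of 0.11 that was not called by an exact permutation test, two-sided (p = 0.286, adjusted p = 0.286 over 3 ratios). Without PBS replicates 2 and 3 the difference was 0.23, at the smallest p that design allows (exact permutation p = 0.0357, adjusted p = 0.107).

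The ligand genes differed from each other in level and in change. Angpt2 (chromosome 8, 18690263 to 18741562) was rare, with 12, 12, 12, 18 and 17 counts in 4FM3 replicates 1 to 5, and 21, 39, 20, 26 and 25 counts in PBS replicates 1 to 5. In CPM these were 1.84, 1.70, 1.92, 2.78 and 2.46 in 4FM3, and 2.73, 4.90, 2.48, 3.29 and 3.22 in PBS. The 4FM3 values were lower, apart from replicate 4, which stood above PBS replicates 1 and 3, and PBS replicate 2 was the highest. The log2 fold change was -0.63 (SE 0.242, adjusted p = 0.0498 by the edgeR quasi-likelihood test), at the edge of the threshold. It did not pass with DESeq2 (-0.62, adjusted p = 0.0812), with limma-voom (-0.60, adjusted p = 0.0604) or without PBS replicate 2 (-0.44, adjusted p = 0.15), and it passed in 3 of the 10 fits that left out 1 library, those without 4FM3 replicate 4, PBS replicate 1 or PBS replicate 3. Over the alternatives its adjusted p lay between 0.0163 and 0.222. In the GENCODE annotation Angpt2 overlaps the gene Mcph1 on the opposite strand. Whether counting used the strand is not given in the sources used here, and Mcph1 itself had 13.3 ± 1.68 CPM in 4FM3 and 13.4 ± 1.40 CPM in PBS (SD, n = 5 each; log2 fold change -0.02, adjusted p = 0.908). Antisense genes also overlap Cd34 and Angpt1, with means of 2.9 and 2.1 counts per library against 884.2 and 186.2 for these genes, and 1, without a row here, overlaps Cdh5.

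Angpt1 (chromosome 15, 42424723 to 42676977) had 31.4, 19.8, 25.3, 24.5 and 22.5 CPM in 4FM3, and 21.4, 26.4, 32.8, 21.8 and 30.02 CPM in PBS. The groups lay within each other, and the log2 fold change of -0.10 (SE 0.145) did not pass (adjusted p = 0.599). Its sign turned to 0.032 without PBS replicates 2 and 3 and to 0.0062 without PBS replicate 3 alone, neither called. The log2 ratio of Angpt2 to Angpt1 averaged -3.26 ± 0.347 in 4FM3 and -2.83 ± 0.452 in PBS (SD, n = 5 each). The difference of -0.43 was not called by the same exact permutation test (p = 0.135, adjusted p = 0.202 over 3 ratios, where 0.00794 is the smallest p the design allows). These ratios carry 0.5 CPM added to each value, and with 2 CPM added the difference was -0.27 (exact permutation p = 0.230, adjusted p = 0.286). The log2 ratio of Vwf to Cdh5 averaged -0.05 ± 0.410 in 4FM3 and 0.45 ± 0.432 in PBS, a difference of -0.50 that did not pass either (exact permutation p = 0.111, adjusted p = 0.202, n = 5 each). Without PBS replicates 2 and 3 this difference was -0.60. It was -0.85 when 4FM3 replicates 2 and 5, the highest ratios of that group, were dropped too, a design too small to pass.

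**Figure D2:**
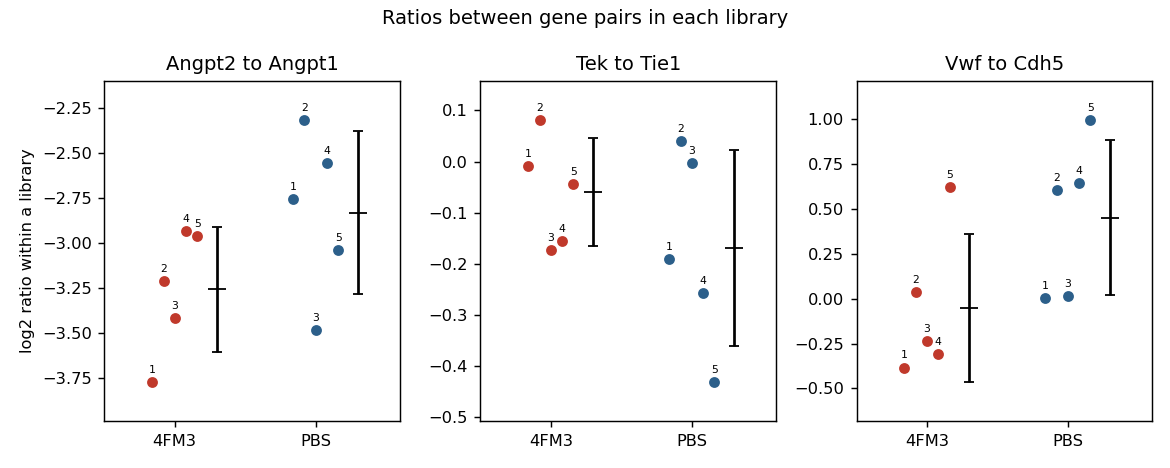
Log2 ratio of 2 genes within each library (vertical axis; CPM plus 0.5), 4FM3 left and PBS right; numbers are replicates, and the black bar gives the mean and SD of 5 libraries. The groups overlap for each of the 3 ratios.

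The smaller differences depended on how libraries were scaled. When each library was scaled to the geometric mean of 26 other endothelial genes, Robo4 stayed higher at 0.40, and Cd34 and Angpt2 stayed lower at -0.50 and -0.82 (adjusted p = 0.00370, 0.000756 and 0.0163 by the edgeR quasi-likelihood test). Of all genes, 47.6% passed under that scaling, and the median of all genes was -0.22. Cdh5, Emcn and Tek stood at 0.024, 0.012 and 0.041 and Pecam1 and Tie1 at -0.068 and -0.065, with none of these 5 called. Relative to the panel, Vwf stood at -0.49 and Angpt1 at -0.30, not called.

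**Figure D3:**
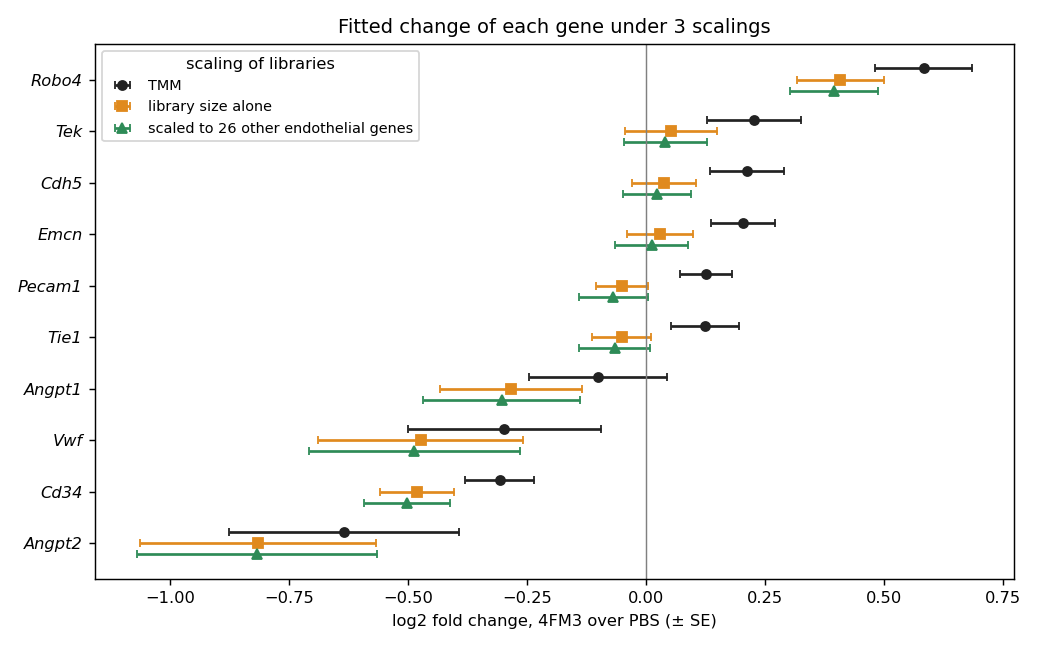
Fitted log2 fold change of 4FM3 over PBS (horizontal axis) with its SE for each gene under TMM, library size alone and scaling to 26 other endothelial genes. Robo4 lies right of 0 and Cd34 and Angpt2 lie left of 0 under all 3, while Pecam1 and Tie1 lie right of 0 under TMM and left of it under the other scalings.

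Levels can be compared between genes only per length, here as mean CPM per kilobase of annotated exon. The length joins all annotated exons of a gene, 4.203 kb for Cdh5, 7.29 kb for Cd34 and 16.06 kb for Vwf. A gene whose transcripts are shorter than this union ranks too low, so the order below holds for this measure only. By this measure Cdh5 was the highest at 56.2 ± 3.88 in 4FM3 and 48.5 ± 4.46 in PBS (SD, n = 5 each), followed by Pecam1 at 31.7 ± 1.23 in 4FM3 and 29.1 ± 0.818 in PBS. Tek and Tie1 came next, with means of 22.5 each in 4FM3 and of 19.2 and 20.6 in PBS, and did not differ from each other beyond their spread. Cd34 had 14.8 ± 1.31 in 4FM3 and 18.3 ± 1.15 in PBS, and Vwf 14.5 ± 3.64 in 4FM3 and 17.8 ± 4.59 in PBS, a pair within each other's spread. In PBS the order was Tie1, Tek, Cd34 and Vwf, each within the spread of its neighbour. Robo4 ranked below Vwf in both groups, at 13.1 ± 1.76 in 4FM3, within the spread of Vwf, and 8.74 ± 1.0 in PBS, where its range overlapped that of Emcn. Emcn stood at 9.25 ± 0.507 in 4FM3 and 8.02 ± 0.557 in PBS. Angpt1 had 4.75 ± 0.830 in 4FM3 and 5.09 ± 0.965 in PBS, and Angpt2 was last at 0.579 ± 0.124 in 4FM3 and 0.901 ± 0.256 in PBS.

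Further genes of the angiopoietin pathway were mixed. Of 16 listed and tested, 2 rose and 5 fell, and the median log2 fold change was -0.12. The share of them that passed was near the 43% of all genes tested (20.9% rose and 22.1% fell). Angpt4, another angiopoietin ligand gene, fell to 1.02 ± 0.310 CPM in 4FM3, against 4.30 ± 1.24 CPM in PBS (SD, n = 5 each; 4.15-fold lower, adjusted p = 0.000273 by the edgeR quasi-likelihood test). Its 4FM3 values, 0.72 to 1.41 CPM, stood near the limit of 0.371 to 0.481 CPM and rest on few counts. Svep1, whose large matrix protein is known to bind TIE1 and is also made by fibroblasts, was 2.38-fold lower (adjusted p = 0.00142). The genes that rose were Ptpn11, a phosphatase gene, and Pik3r1, a regulatory subunit of PI3 kinase, by 1.26-fold and 1.25-fold, and those that fell included Tnip2 and Adam10, 1.25-fold and 1.13-fold lower, all 4 named after their values were seen. Pik3r1 and Ptpn11 are not specific to endothelium, and the count that rose was 1 without 4FM3 replicate 3 or 4 or PBS replicate 1, 2, 3 or 4. Ptprb, the phosphatase that acts on TIE2, had 414 ± 39.6 CPM in 4FM3 and 426 ± 12.8 CPM in PBS and did not pass (log2 fold change -0.04, adjusted p = 0.694). Foxo1, which TIE2 signalling restrains and which drives Angpt2, did not pass either (-0.17, adjusted p = 0.264). Both were named after their values were seen. With library size alone none of the 16 rose and 10 fell, and with PBS replicates 2 and 3 left out none of the 16 rose and 3 fell.

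Other genes of endothelial identity were more often higher than lower with TMM, but not with library size alone. Of 26 tested, 11 rose and 1 fell, and the median log2 fold change was 0.21. Of all genes tested 20.9% rose and 22.1% fell. Kdr, the main receptor for vascular endothelial growth factor, had 325 ± 31.5 CPM in 4FM3 and 207 ± 32.4 CPM in PBS (SD, n = 5 each), 1.57-fold higher (adjusted p = 0.000728 by the edgeR quasi-likelihood test). The adhesion receptor gene Adgrl4 and the transcription factor gene Sox18 were 1.47-fold and 1.41-fold higher (adjusted p = 0.000521 and 0.000954). Clec14a, a lectin gene of endothelium, was the 1 that fell, 1.43-fold lower (adjusted p = 0.00147), and was named after its values were seen. With library size alone 4 rose and 4 fell, with a median of 0.03, and without PBS replicates 2 and 3, 6 rose and 1 fell. Scaled to their own geometric mean 4 rose and 4 fell, with a median of 0.02. That scaling centres these genes near 0 by design, so it cannot show whether they rose. Among junction partners of VE-cadherin 2 of 15 rose and 1 fell, with a median of 0.03, both counts below the shares of all genes. With library size alone none rose and 7 fell, with a median of -0.15. Those that passed with TMM were Ctnna1, which links cadherins to actin (1.17-fold higher, adjusted p = 0.0150), F11r (1.19-fold higher, adjusted p = 0.0484) and Jam3 (1.31-fold lower, adjusted p = 0.0143). Of the 3, Ctnna1 is abundant in cardiomyocytes too, and none of the 15 passed without PBS replicates 2 and 3. The count that rose was 1 without 4FM3 replicate 1 or 4 or PBS replicate 2, 3 or 5 and 4 without PBS replicate 4, and the count that fell was 2 without 4FM3 replicate 5 or PBS replicate 4.

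Of all genes tested 20.9% rose and 22.1% fell, and the counts of vessel-type genes stand beside these shares. Most capillary genes rose, while the few arterial and venous genes that passed were all lower. Of 12 capillary genes 9 rose and none fell, and the median log2 fold change was 0.52. Slc28a2, a nucleoside transporter gene, was 1.69-fold higher, Car4, a carbonic anhydrase on the capillary surface, was 1.96-fold higher, and Cd300lg was 1.44-fold higher (adjusted p = 0.000329, 0.000972 and 0.00121 by the edgeR quasi-likelihood test). Car4 had 8.63 ± 0.709 CPM in 4FM3 and 4.38 ± 1.11 CPM in PBS (SD, n = 5 each). Of 7 venous genes tested, which include Vwf, 3 fell and none rose, with a median of -0.81. Nr2f2, a transcription factor of venous identity, had 23.3 ± 1.67 CPM in 4FM3 and 41.5 ± 6.39 CPM in PBS, 1.78-fold lower (adjusted p = 0.000271). Vcam1 and Mgp, which fibroblasts and other cells also make, were 2.23-fold and 2.73-fold lower (adjusted p = 0.00408 and 0.00736). Selp and Vwf, also on the venous list, did not pass, as given above. Fibroblast markers had a median of -0.77, and the part of fibroblasts in the values of Nr2f2 and the other venous genes was not tested. Of 13 arterial genes 4 fell and none rose, with a median of -0.16, namely Jag1, Mecom and Fbln5 (1.54-fold, 1.38-fold and 2.19-fold lower) and, named after its values were seen, the gap junction gene Gja4 (1.52-fold lower). Without 4FM3 replicate 5, 1 arterial gene rose. A difference between the capillary, venous and arterial lists was not tested. Without PBS replicates 2 and 3 the capillary count was 4 of 12 higher with a median of 0.44, 3 of 7 venous genes fell with a median of -0.53, and 3 of 13 arterial genes fell. Relative to the 26 other endothelial genes the capillary count was 5 higher and 1 lower with a median of 0.33. With library size alone it was 6 higher and 1 lower with a median of 0.34. Under either of these scalings 6 of 13 arterial and 4 of 7 venous genes fell, and none rose. Of all genes, 47.6% passed relative to the panel and 50.4% with library size alone, most of them lower.

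**Figure D4:**
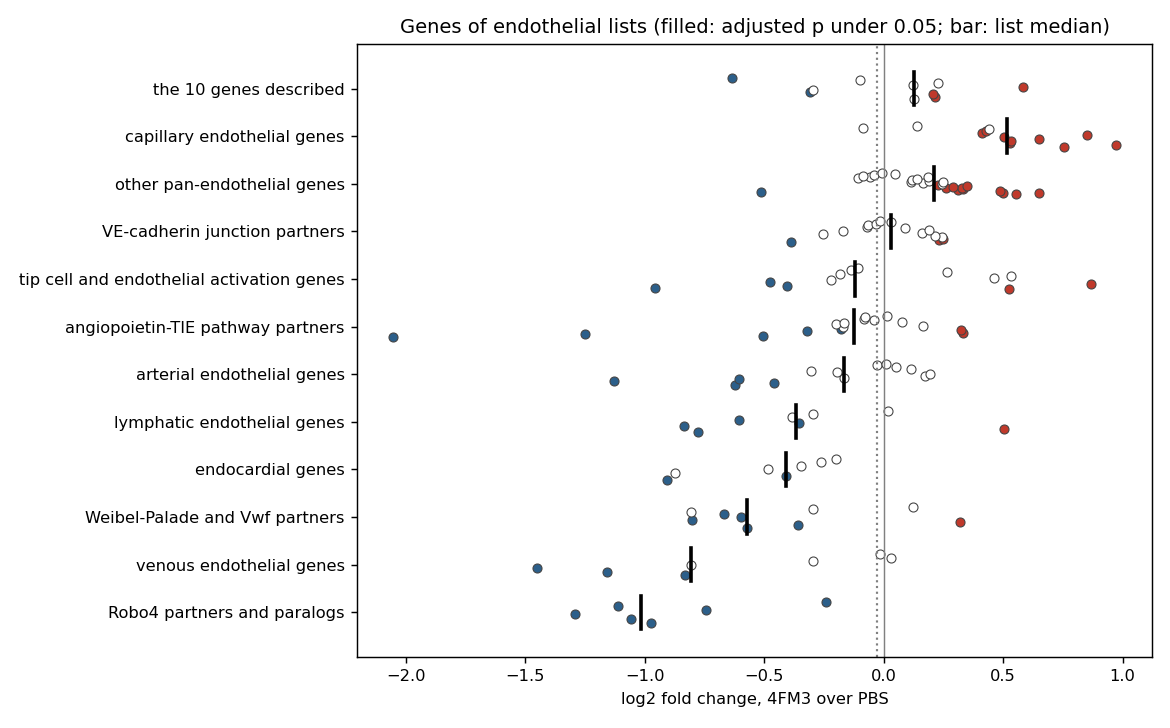
Log2 fold change of 4FM3 over PBS (horizontal axis) for each tested gene of 11 endothelial lists and the 10 genes described; filled points passed the test, red higher and blue lower, black bars are list medians and the dotted line is the median of all genes. The capillary list has the highest median, 0.52, and the list of Robo4 partners and paralogs the lowest, -1.02.

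The profiles most like those of 3 of the genes were found by the root mean square difference of log2 CPM over the 10 libraries, each gene centred on its own mean. Nearest to Cdh5 were Ppp2r1a, Lrba, Srp68, Tob1 and Atg2a, at 0.0481 to 0.0602. Nearest to Tek were Dusp16, Pepd, Llgl2, Slc9a3r2 and Nmd3, at 0.0905 to 0.0995. Angpt2 had more distant neighbours, Dzip1l, Mylk, Zfp36, Chd3 and Asl, at 0.152 to 0.189. The measure favours genes of small spread, and all points share the same 10 libraries and their scaling.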

How the data were processed

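Left ventricle RNA for 10 libraries was depleted of ribosomal RNA and made into strand-preserving libraries, per the labels' protocols. The genome build was mm10, per the submitters' processing notes; the sources used here give no aligner, counter, annotation or strand setting. Per gene and library the authors deposited a raw count, in whole numbers. The deposited normalized values were a signal equal to the count times 1 factor per library, from 0.9311 to 1.114 (within 0.051 for counts under 1000), and the deposited transformed values were log2 of that signal plus 1 (within 0.005). Only counts entered tests. In 26 rows, with 0.131% to 0.161% of a library's counts, the name was a date and not a symbol.

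Counts were filtered with filterByExpr by group, which left 12906 of 49585 rows, and scaled by TMM. 4FM3 was compared with PBS by edgeR 4.0.16 (R 4.3.3, quasi-likelihood test with robust dispersions, two-sided, no covariate) with Benjamini-Hochberg adjustment over all genes tested. The SE is the log2 fold change divided by the square root of F. Exact permutation tests of ratios ran over 252 assignments with scipy 1.17.1. CPM per kilobase used the union of GENCODE M21 exons on GRCm38, which is mm10, and 97.7% of tested symbols were in that annotation.

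The 10 genes, the lists and the alternatives were chosen with earlier results of these data known, so lists are described by counts and medians with no test. The genes named are the 10, the 3 of smallest p in each list described, and 5 nearest profiles for each of Cdh5, Tek and Angpt2; others are marked where they stand, and some genes that the rule names are not reported here. Alternatives were DESeq2 1.42.0, limma-voom (limma 3.58.1), other scalings, no filter, a replicate block and libraries left out. Methods were tested on simulated data. The limit of 3 counts covers counting error only.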

Additional observations from a re-analysis of the deposited data

Results flagged for a closer look

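Pecam1 had 211 CPM in 4FM3 replicate 1, and the other 4 libraries of that group lay between 192 and 197 CPM. The gap to the nearest of them, divided by the range of the group, was 0.737, above the critical value of 0.71 for 5 libraries. It was the 1 value so marked among 26 groups of 5 checked, for the 10 genes and 3 ratios in each group, and chance marks about 1 in 20 groups.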

How the results depend on the processing

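Robo4 and Cd34 kept their direction and their side of the threshold under all 19 alternatives in which each was tested. None of the 3 ratios was called under another pseudocount or with 1 library left out. Calls of Cdh5, Emcn and Angpt2 did not hold. With size factors of the RLE kind Angpt2 did not pass (-0.62). With library size alone 3 of the 10 genes passed, Cdh5 (0.038) and Emcn (0.029) did not, and Pecam1 (-0.051) and Tie1 (-0.051) turned sign, uncalled. Scaled to the 26 other endothelial genes 3 passed, with Cdh5 (0.024) and Emcn (0.012) not called and Pecam1 (-0.068) and Tie1 (-0.065) turned. With no filter on low counts 2 passed, and Cdh5 (0.22), Emcn (0.21) and Angpt2 (-0.63) did not. DESeq2 called Pecam1 (0.14) and did not call Angpt2 (-0.62), nor did limma-voom (-0.60). Without PBS replicates 2 and 3, 3521 genes and 2 of the 10 passed, Cdh5 (0.23), Emcn (0.18) and Angpt2 (-0.51) did not, and Angpt1 turned to 0.032. Without those and 4FM3 replicates 2 and 5, 3 of the 10 passed, Vwf (-0.63) among them, and Cdh5 (0.26), Emcn (0.19) and Angpt2 (-0.50) did not. The 4FM3 libraries dropped there held the highest Vwf values of their group. Angpt1 turned to 0.15. These last fits held fewer libraries, and otherwise the cause was not tested.

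Leaving out 1 library at a time gave 4573 to 5831 genes and 2 to 5 of the 10, with log2 fold changes of 0.10 to 0.15 for Pecam1, 0.17 to 0.27 for Cdh5, 0.19 to 0.25 for Emcn, -0.34 to -0.26 for Cd34, -0.45 to -0.20 for Vwf, 0.51 to 0.64 for Robo4, 0.094 to 0.19 for Tie1, 0.15 to 0.28 for Tek, -0.20 to 0.0062 for Angpt1 and -0.74 to -0.44 for Angpt2. Differences in log2 ratio ran from -0.59 to -0.30 for Angpt2 to Angpt1, 0.043 to 0.16 for Tek to Tie1 and -0.67 to -0.37 for Vwf to Cdh5. Over all genes the replicate numbers showed no pairing. Same-numbered libraries deviated from their group means with correlations over genes of -0.0448 to 0.0595, and 1 of the 10 correlated best with its own number. Such correlations do not settle whether the libraries were paired. A replicate block lowered the SE of Robo4, Cdh5, Vwf, Tie1 and Tek and raised that of Pecam1, Emcn, Cd34, Angpt1 and Angpt2. With the replicate block 5592 genes passed, 5 of the 10 among them, Vwf passed (-0.29), Angpt2 did not (-0.62), and the ratios could not pass, since 0.0625 is the smallest p of 5 pairs. The ratio tests with 3 libraries a group could not pass either, at 0.1, and without PBS replicates 2 and 3, at 0.0357, a call after adjustment would need all 3 ratios at that minimum. Angpt2 rests on 12 to 39 counts per library, and the part of depth in its lost calls was not tested.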

Other observations

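Beside the counts below stand the 20.9% of all genes tested that rose and the 22.1% that fell. Of 7 endocardial genes tested 2 fell and none rose, and the median log2 fold change was -0.41. Plvap, the diaphragm protein of fenestrated and endocardial vessels, was 1.88-fold lower and Nfatc1, a transcription factor of endocardium, 1.33-fold lower (adjusted p = 0.00831 and 0.00904 by the edgeR quasi-likelihood test), and Cytl1 did not pass (-0.88, adjusted p = 0.0510). The endocardial count was 4 without 4FM3 replicate 5 and 4 without PBS replicate 3, and 1 without both PBS replicates 2 and 3. Of 8 lymphatic genes 4 fell and 1 rose, with a median of -0.37. Reln was 1.78-fold lower and Thy1, which fibroblasts and T cells also carry, 1.71-fold lower, while Prox1, which cardiomyocytes also express, was 1.42-fold higher (adjusted p = 0.00588, 0.00188 and 0.00228). The lymphatic count that fell was 2 without 4FM3 replicate 4 and 2 without PBS replicate 2, alone or with PBS replicate 3.

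Of 12 genes of tip cells and endothelial activation 2 rose and 3 fell, with a median of -0.12, and Cxcr4 and Apln, named after their values were seen, were 1.39-fold lower and 1.83-fold higher (adjusted p = 0.0285 and 0.00485). Without PBS replicates 2 and 3, 3 of the 12 rose and 2 fell. Trp53i11 was 1.44-fold higher, and Icam1 and Nid2 were 1.94-fold and 1.33-fold lower (adjusted p = 0.00129, 0.00261 and 0.00356 by the edgeR quasi-likelihood test). Among mural cells, the pericytes and smooth muscle that wrap vessels, 4 of 12 markers rose and 6 fell, with a median of -0.17. The 12 markers summed to 1724 to 1935 CPM in 4FM3 and 1416 to 1766 CPM in PBS. Pericyte markers went both ways. Rgs5 and Abcc9 were 1.36-fold and 1.69-fold higher (adjusted p = 0.000967 and 0.000968), and Pdgfrb and Cspg4, named after their values were seen, were 1.40-fold and 1.64-fold lower (adjusted p = 0.00204 and 0.00660). Cnn1, a contractile gene of smooth muscle, was 3.47-fold lower (adjusted p = 0.00124). Abcc9 is also made by cardiomyocytes. The part of cardiomyocytes or of fibroblasts in the changes of these markers, higher or lower, was not tested.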
